A study of Mus musculus with 6 samples.

Results

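The DNA replication machinery was followed as 44 genes, chosen by symbol, whose products license origins, unwind DNA, copy both strands, join the fragments, supply deoxynucleotides and rebuild chromatin. All 44 were present among the 22984 genes of the deposited expression table. The labels describe the mouse cells as bone marrow mesenchymal stem cells (BMSCs), plastic-adherent stroma able to give rise to osteoblasts, adipocytes and chondrocytes. There were 3 Grx2-/- libraries and 3 Grx2+/+ libraries, and the design text names both as O-BMSCs without expanding the prefix. Grx2 (gene symbol Glrx2) is glutaredoxin 2, a mainly mitochondrial thiol-disulfide oxidoreductase. The labels give neither strain, age, passage nor the way the allele was made, and do not say whether replicates are separate animals or cultures, so a p-value here reflects the spread of these libraries alone, which may be technical. The series set out to find which transcripts differ when Grx2 is knocked out.

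Replication begins in G1, when the origin recognition complex, CDC6 and CDT1 load the ring-shaped MCM2-7 helicase onto origins. In S phase CDC45 and the GINS complex join MCM2-7 to form the active helicase, DNA polymerase alpha-primase lays down primers, and polymerases epsilon and delta extend the leading and lagging strands while held by the sliding clamp PCNA. Many of these genes are transcribed at the G1/S boundary under E2F transcription factors, so their mRNA is commonly high in proliferating and low in resting cultures. Bone marrow stromal cells divide in culture and slow down as they differentiate or age.

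E2F factors bind motifs with a TTT start and a GC-rich core, so the sequence before the start of each member was searched for TTTCCCGC, TTTCGCGC, TTTGCCGC and TTTGGCGC on both strands. The RefSeq promoter table (build GRCm38.p6) held 37 of the 44 members, and the 250 bases before each listed start were read. Some genes have more than 1 listed start, and a match before any of them was counted. At least 1 match lay in 9 of the 37 members (24.3%), against 353 of 8886 other tested genes with a promoter in the table (3.97%) and 583 of all 27025 genes in it (2.16%). The CCAAT box, bound by NF-Y and common in cell cycle promoters, was found in 23 of the 37 members (62.2%) and in 3602 of the 8886 others (40.5%). Windows of 60 bases from 5 members that overlap no annotated exon are shown because they carry the E2F-type letters in the promoters of helicase, licensing, polymerase and chromatin genes described below. Capitals mark the matched letters, and overlapping matches on opposite strands run together.
Mcm5, chr8:75109332-75109391, + strand: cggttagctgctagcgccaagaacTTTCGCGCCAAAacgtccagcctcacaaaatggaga
Mcm6, chr1:128359756-128359815, - strand: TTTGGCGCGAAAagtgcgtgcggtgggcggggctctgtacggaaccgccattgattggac
Cdc6, chr11:98907987-98908046, + strand: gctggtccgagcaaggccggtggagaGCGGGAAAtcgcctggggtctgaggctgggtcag
Pola1, chrX:93632260-93632319, - strand: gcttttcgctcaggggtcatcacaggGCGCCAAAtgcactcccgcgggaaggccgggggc
Uhrf1, chr17:56304102-56304161, + strand: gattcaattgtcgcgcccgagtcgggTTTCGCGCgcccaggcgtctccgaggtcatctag
Such a match is a string of letters and was not tested for binding. The Uhrf1 window lies before the downstream of its listed starts, and the upstream start had 0 matches. The other members with a match were Mcm7, Orc1, Rfc3 and Gins3.

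All values are FPKM (fragment counts scaled to gene length and library depth) as the authors deposited them, and means carry the SD over n = 3 libraries per genotype. Changes are log2 fold changes ± SE of FPKM + 1, Grx2-/- over Grx2+/+, from limma with trend, two-sided, with Benjamini-Hochberg adjustment over the 11083 genes with a mean of at least 1 FPKM. A gene is said to have risen or fallen where its adjusted p was under 0.05. Whole reads worked back from the FPKM steps put the depth at 40797879 to 41794919 reads per library, and the lowest member count in any library was 208 reads, for Orc1. Glrx2 itself checked the labels: it had 1, 0 and 0 reads in the Grx2-/- libraries and 756, 800 and 761 reads in the Grx2+/+ libraries. All 9 mesenchymal markers were expressed in every library, 4 rising and 5 falling in Grx2-/- cells, with Col1a1 at 2005 to 2376 FPKM in Grx2-/- and 3452 to 3985 FPKM in Grx2+/+ libraries. The macrophage gene Lyz2 was also abundant, at 1707 to 2421 FPKM in Grx2-/- and 1141 to 1283 FPKM in Grx2+/+ libraries. Grx2-/- replicate 1 and Grx2+/+ replicate 2 stood furthest from the other libraries of their genotype.

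All 44 replication genes were higher in Grx2-/- cells. Each of the 44 rose (limma adjusted p of at most 0.038) and 0 fell, where 42.7% of all tested genes rose, 24.6% fell and 67.4% did either. The members were chosen with earlier results of these data known, so these counts are not those of an unselected set. Some further subunits of the same complexes, given below, rose less or fell. With quantile normalization 30.9% of tested genes rose, 35.5% fell, and 42 of the 44 members rose. No member had an unadjusted p under 0.05 in the lower direction, and voom on the whole reads also called 44 higher and 0 lower. The median log2 fold change of the members was 0.80, with a range of 0.24 to 1.29, while the median of all tested genes was 0.085. A rise of at least 2-fold on this scale was seen in 13 of the 44 members, against 6.49% of all tested genes. For 43 of 44 members all Grx2-/- libraries lay above all Grx2+/+ libraries, which held for 45.7% of all tested genes. The reverse order held for 27.4%, so that 73.1% of all tested genes had genotypes that did not overlap. Summed over the 44 genes the level was 1430 ± 83.4 FPKM in Grx2-/- and 734 ± 43.8 FPKM in Grx2+/+ libraries, a ratio of 1.95. In bulk RNA a larger share of replicating cells and more of these transcripts per cell cannot be told apart.

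**Figure D1:**
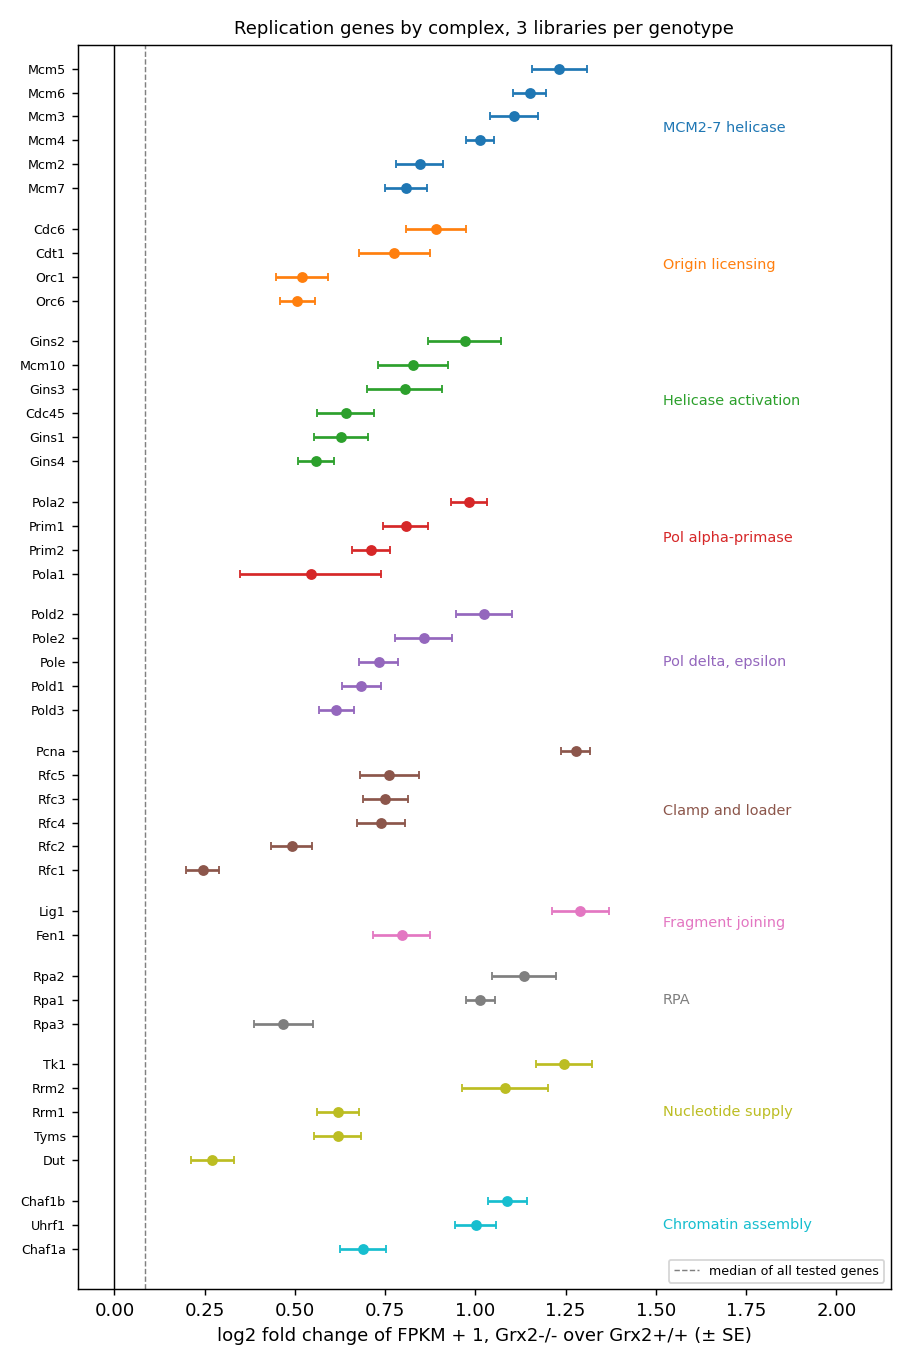
Log2 fold change of FPKM + 1 (x axis, Grx2-/- over Grx2+/+, ± SE, 3 libraries per genotype) for the 44 replication genes, grouped and coloured by complex. All points lie right of 0 and of the dashed line, the median of all tested genes at 0.085, from Rfc1 at 0.24 to Lig1 at 1.29.

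The MCM2-7 helicase, the motor that unwinds DNA, rose in all 6 subunits, by 0.81 to 1.23 on the log2 scale. Mcm5, which with Mcm2 forms the gate of the ring, had 43.1, 50.8 and 50.4 FPKM in Grx2-/- replicates 1 to 3 and 18.8, 21.6 and 19.2 FPKM in Grx2+/+ replicates 1 to 3. That was the largest change of the 6 subunits (1.23 ± 0.076, adjusted p = 3.00e-06), and its groups were far apart. Mcm7 had the smallest (0.81 ± 0.058), at 45.2, 51.6 and 51.2 FPKM in Grx2-/- and 27.2, 29.1 and 26.9 FPKM in Grx2+/+ libraries. Mcm6 averaged 61.3 ± 3.60 FPKM in Grx2-/- and 27.1 ± 0.314 FPKM in Grx2+/+ libraries. The remaining subunits Mcm3 (1.11 ± 0.067), Mcm4 (1.01 ± 0.039) and Mcm2 (0.85 ± 0.065) rose in between.

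The hexamer holds 1 copy of each subunit, and the 6 transcripts stayed close to each other in level per length. The ratio of the highest to the lowest was 1.44, 1.49 and 1.48 in Grx2-/- libraries and 1.44, 1.34 and 1.41 in Grx2+/+ libraries. Their order changed: Mcm6 was the highest and Mcm2 the lowest in every Grx2-/- library, and Mcm7 was the highest and Mcm5 the lowest in every Grx2+/+ library. The ratio of Mcm5 to Mcm7 FPKM was 0.954, 0.986 and 0.984 in Grx2-/- and 0.692, 0.745 and 0.711 in Grx2+/+ libraries. This was 1 of 8 ratios of partner genes compared, all chosen after their values were seen. In each of the 8 the genotypes did not overlap, and each had an exact two-sided permutation p of 0.1 (0.1 adjusted over the 8), the smallest that 3 libraries against 3 allow. Since the values were seen first, these p-values are no test of the pairs. How often ratios of other gene pairs keep the genotypes apart was not counted.

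**Figure D2:**
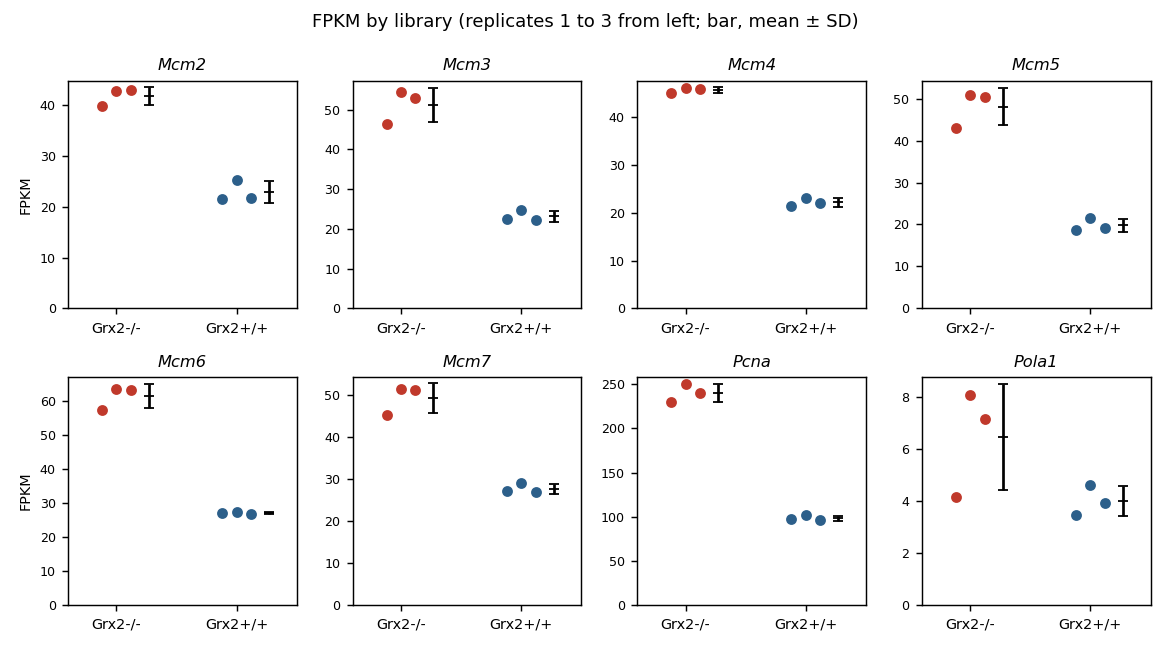
FPKM (y axis, from 0) of the 6 MCM2-7 genes, Pcna and Pola1 in each library, with Grx2-/- (red) left of Grx2+/+ (blue), replicates 1 to 3 from left to right in each group and the mean ± SD as a bar. The genotypes are apart for 7 of the genes, while Grx2-/- replicate 1 of Pola1 (4.16 FPKM) lies among the Grx2+/+ libraries.

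The 4 licensing genes among the 44 rose by 0.51 to 0.89, a range that overlaps that of the helicase subunits. Other origin recognition subunits, outside the 44, did not rise alike. Orc2 was at 0.16, Orc5 at 0.01, Orc3 at -0.11 and Orc4 at -0.50 (limma adjusted p = 0.0272, 0.855, 0.0781 and 0.000253). Orc2, Orc3 and Orc5 were named after their values were seen. Cdc6, the ATPase that recruits CDT1 and MCM2-7 to origins, had 7.49, 8.51 and 8.60 FPKM in Grx2-/- and 3.42, 4.27 and 4.22 FPKM in Grx2+/+ libraries (0.89 ± 0.083, adjusted p = 3.39e-05). Orc6, a small subunit of the origin recognition complex, had the smallest change (0.51 ± 0.048), with 21.2, 23.6 and 23.0 FPKM in Grx2-/- and 15.4, 15.98 and 15.3 FPKM in Grx2+/+ libraries. Both genes were separated between genotypes. Orc1, the cell-cycle-regulated large subunit, was the scarcest of the 44 at 3.21 ± 0.202 FPKM in Grx2-/- and 1.94 ± 0.216 FPKM in Grx2+/+ libraries (0.52 ± 0.072). Cdt1, the MCM loader, averaged 19.4 ± 3.03 FPKM in Grx2-/- and 10.8 ± 0.163 FPKM in Grx2+/+ libraries (0.78 ± 0.099), and Grx2-/- replicate 1 was the low one at 16.03 FPKM.

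Factors that turn the loaded ring into an active helicase rose by 0.56 to 0.97. Gins2, 1 of 4 subunits of GINS, had 34.9, 41.6 and 41.7 FPKM in Grx2-/- and 19.1, 22.6 and 17.3 FPKM in Grx2+/+ libraries (0.97 ± 0.10). Gins4 had 25.5, 29.0 and 27.03 FPKM in Grx2-/- and 17.7, 18.3 and 18.3 FPKM in Grx2+/+ libraries, the smallest change here (0.56 ± 0.050, adjusted p = 2.64e-05). The 4 GINS transcripts were unequal in level: Gins2 and Gins4 averaged 39.4 and 27.2 FPKM in Grx2-/- libraries, where Gins1 and Gins3 averaged 7.03 and 5.64 FPKM. Gins3 was the only one of the group with its highest Grx2-/- value in replicate 1 (6.49 FPKM, against 4.99 and 5.44 in replicates 2 and 3). Mcm10 (0.83 ± 0.098), which helps to start unwinding, and Cdc45 (0.64 ± 0.078), the helicase cofactor, also rose.

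Polymerase alpha-primase, which makes the RNA-DNA primers, rose in all 4 subunits, but Pola1 less securely than the rest. Pola2, the regulatory B subunit, had 8.88, 9.46 and 8.96 FPKM in Grx2-/- and 4.29, 4.12 and 3.93 FPKM in Grx2+/+ libraries (0.98 ± 0.050, adjusted p = 1.06e-06). Pola1, the catalytic subunit, had 4.16, 8.07 and 7.15 FPKM in Grx2-/- and 3.45, 4.61 and 3.93 FPKM in Grx2+/+ libraries (0.54 ± 0.20, adjusted p = 0.038). It was the only member with overlapping groups, since Grx2-/- replicate 1 lay below Grx2+/+ replicate 2. The call was lost under 7 of 15 other settings by limma, 4 of them leaving out 1 library: Grx2-/- replicate 2 or 3 (adjusted p = 0.112 and 0.12) and Grx2+/+ replicate 1 or 3 (0.11 and 0.0904). Over all settings its adjusted p ran from 3.6e-05 to 0.12. The primase subunits Prim1 (0.81 ± 0.062), the catalytic one, and Prim2 (0.71 ± 0.052) rose with separated groups.

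The replicative polymerases rose by 0.61 to 1.02. Pold2, an accessory subunit of the lagging-strand polymerase delta, had 19.9, 23.9 and 24.1 FPKM in Grx2-/- and 11.0, 10.9 and 9.90 FPKM in Grx2+/+ libraries (1.02 ± 0.077). Pold3, another accessory subunit, had 7.98, 8.10 and 8.40 FPKM in Grx2-/- and 5.18, 4.99 and 4.79 FPKM in Grx2+/+ libraries (0.61 ± 0.048). The catalytic subunits moved between these values: Pold1 by 0.68 ± 0.054 and Pole, of the leading-strand polymerase epsilon, by 0.73 ± 0.055. Pole2, the second-largest epsilon subunit, averaged 8.25 ± 0.858 FPKM in Grx2-/- and 4.10 ± 0.332 FPKM in Grx2+/+ libraries. Small subunits outside the 44 genes, Pole3, Pole4 and Pold4, moved less: Pole3 and Pole4 rose by 0.21 each (adjusted p = 0.0159 and 0.00331), and Pold4 was at 0.09 (adjusted p = 0.309 by limma). Pole3 was not called with median-of-ratios scaling, with quantile normalization or without Grx2+/+ replicate 3 (adjusted p = 0.116, 0.374 and 0.0565; 0.00282 to 0.374 over all settings), and these subunits were named after their values were seen.

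The sliding clamp and its loader showed the widest spread within 1 machine. Pcna, the ring that tethers the polymerases and the most abundant of the 44 transcripts, had 229.7, 250.1 and 239.6 FPKM in Grx2-/- and 97.2, 101.3 and 96.3 FPKM in Grx2+/+ libraries (1.28 ± 0.040, adjusted p = 9.32e-08). Rfc1, the large subunit of the loader replication factor C, had 8.93, 9.503 and 9.496 FPKM in Grx2-/- and 7.50, 7.88 and 7.73 FPKM in Grx2+/+ libraries (0.24 ± 0.045, adjusted p = 0.00174). That was the smallest change of the 44, although its groups did not overlap. The small loader subunits Rfc3, Rfc4 and Rfc5 rose by 0.75, 0.74 and 0.76, and Rfc2 by 0.49 ± 0.058. The ratio of Pcna to Rfc1 FPKM was 25.7, 26.3 and 25.2 in Grx2-/- and 13.0, 12.9 and 12.5 in Grx2+/+ libraries.

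The enzymes that finish Okazaki fragments and the single-strand coat rose as well. Lig1, the ligase that seals the fragments, had 25.9, 31.3 and 29.0 FPKM in Grx2-/- and 10.3, 12.1 and 11.1 FPKM in Grx2+/+ libraries, the largest change of the 44 (1.29 ± 0.079, adjusted p = 2.88e-06). Fen1, the flap nuclease that acts before it, had 20.1, 24.7 and 24.4 FPKM in Grx2-/- and 13.2, 13.2 and 12.1 FPKM in Grx2+/+ libraries (0.80 ± 0.078). Both were separated between genotypes. RPA, the trimer that covers single-stranded DNA, rose unevenly. Rpa2 had 26.6, 33.4 and 30.9 FPKM in Grx2-/- and 12.2, 14.4 and 13.1 FPKM in Grx2+/+ libraries (1.14 ± 0.088), and Rpa1, the largest subunit, rose by 1.01 ± 0.041. Rpa3, the smallest subunit, had 34.4, 34.2 and 32.4 FPKM in Grx2-/- and 21.7, 27.8 and 23.2 FPKM in Grx2+/+ libraries (0.47 ± 0.082). Replicate 2 was the high Grx2+/+ library. The ratio of Rpa1 to Rpa3 FPKM averaged 2.08 in Grx2-/- and 1.42 in Grx2+/+ libraries.

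Nucleotide supply genes rose by 0.27 to 1.24. Tk1, the salvage thymidine kinase of S phase, had 31.6, 40.1 and 37.5 FPKM in Grx2-/- and 14.6, 14.7 and 14.7 FPKM in Grx2+/+ libraries (1.24 ± 0.078, adjusted p = 3.36e-06). Dut, the dUTPase that keeps uracil out of DNA, had 21.6, 24.95 and 22.8 FPKM in Grx2-/- and 18.2, 20.1 and 18.6 FPKM in Grx2+/+ libraries. Its change was among the 2 smallest (0.27 ± 0.060, adjusted p = 0.00432), and the groups did not overlap. Ribonucleotide reductase, which makes deoxynucleotides and takes its reducing power from thioredoxin or glutaredoxin, was represented by both S-phase subunits. Rrm2, the radical-bearing small subunit, had 124, 132 and 135 FPKM in Grx2-/- and 51.3, 75.3 and 59.1 FPKM in Grx2+/+ libraries (1.08 ± 0.12), with replicate 2 the high Grx2+/+ library. Rrm1, the catalytic large subunit, averaged 80.9 ± 6.05 FPKM in Grx2-/- and 52.3 ± 2.11 FPKM in Grx2+/+ libraries (0.62 ± 0.058). Tyms, thymidylate synthase, rose by 0.62 ± 0.064.

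Genes that rebuild chromatin behind the fork rose by 0.69 to 1.09. Chaf1b, a subunit of the histone chaperone CAF-1, had 17.1, 19.5 and 19.1 FPKM in Grx2-/- and 8.27, 8.08 and 8.19 FPKM in Grx2+/+ libraries (1.09 ± 0.054, adjusted p = 9.43e-07). Chaf1a, its PCNA-binding partner, had 18.5, 21.1 and 19.4 FPKM in Grx2-/- and 11.6, 12.7 and 11.1 FPKM in Grx2+/+ libraries (0.69 ± 0.063). Both pairs of groups were apart, and the ratio of Chaf1b to Chaf1a averaged 0.944 in Grx2-/- and 0.695 in Grx2+/+ libraries. Uhrf1, which brings the maintenance methyltransferase DNMT1 to newly copied CpG sites, averaged 35.5 ± 2.36 FPKM in Grx2-/- and 17.2 ± 0.823 FPKM in Grx2+/+ libraries (1.00 ± 0.057).

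**Figure D3:**
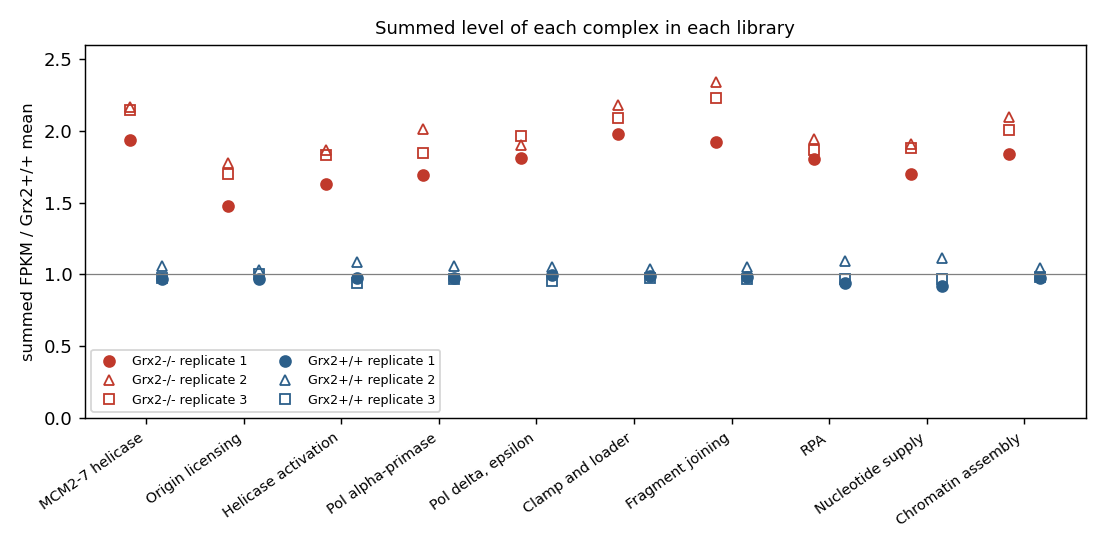
Summed FPKM of each of the 10 groups of replication genes in each library, divided by the Grx2+/+ mean of that group (y axis, from 0), with Grx2-/- (red) left of Grx2+/+ (blue) and a symbol per replicate. Mean ratios run from 1.65 for origin licensing to 2.16 for Okazaki fragment joining, and Grx2-/- replicate 1 is the lowest red symbol in every group.

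Summed by role, every group was higher in each Grx2-/- library than in any Grx2+/+ library. The MCM2-7 sum was 297 ± 18.2 FPKM in Grx2-/- and 143 ± 7.33 FPKM in Grx2+/+ libraries, a ratio of 2.08, the same as for the clamp and loader. Most of the clamp and loader sum was Pcna, on average 240 of 346 FPKM in Grx2-/- and 98.3 of 166 FPKM in Grx2+/+ libraries. The loader genes alone, Rfc1 to Rfc5, rose by 0.24 to 0.76 on the log2 scale. Origin licensing had the smallest ratio, 1.65. These sums are descriptions and were not tested.

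Other genes of the replication pathway moved less uniformly. Of 87 further genes on 6 lists, 84 were tested: 56 rose, 7 fell and 21 did not pass, with a median log2 fold change of 0.30, beside 42.7% of all tested genes rising and 24.6% falling. The split was 48 higher and 13 lower under median-of-ratios scaling, where 34.3% of all tested genes rose and 32.2% fell. It was 45 higher and 14 lower under quantile normalization, with 30.9% and 35.5% of all tested genes. Among 15 tested origin and firing genes 9 rose and 1 fell. Geminin (Gmnn), the inhibitor of CDT1, rose by 1.01 ± 0.093 to 12.6 ± 1.81 FPKM in Grx2-/-, against 5.72 ± 0.362 FPKM in Grx2+/+ libraries, and the ratio of Cdt1 to Gmnn averaged 1.54 in Grx2-/- and 1.90 in Grx2+/+ libraries. Wdhd1 (0.64 ± 0.062), which couples helicase and polymerase alpha, and Topbp1 (0.46 ± 0.051), a firing factor, also rose. Orc4, another origin recognition subunit, fell to 2.67 ± 0.250 FPKM in Grx2-/-, against 4.19 ± 0.191 FPKM in Grx2+/+ libraries (-0.50 ± 0.066, adjusted p = 0.000253).

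Among 16 tested fork genes 11 rose and 2 fell. The checkpoint mediator Clspn (1.11 ± 0.086) and the alternative clamp loader subunit Dscc1 (1.10 ± 0.092) rose, as did the fork protection pair Timeless (0.59) and Tipin (0.56). The topoisomerases, named after their values were seen, were split. Top2a, the form of dividing cells, rose to 59.8 ± 7.91 FPKM in Grx2-/-, against 38.0 ± 3.96 FPKM in Grx2+/+ libraries (0.63 ± 0.10). Top2b, the form also present in resting cells, fell to 23.5 ± 3.56 FPKM in Grx2-/-, against 36.0 ± 2.18 FPKM in Grx2+/+ libraries (-0.61 ± 0.10), and Top1 fell by 0.27 on the log2 scale. The Top2a to Top2b ratio was 2.59, 2.45 and 2.62 in Grx2-/- and 1.00, 1.10 and 1.06 in Grx2+/+ libraries.

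Of 12 other nucleotide genes 8 rose and 2 fell. Dctpp1 (0.80 ± 0.047), which removes modified dCTP, and Dck (0.73 ± 0.062), a salvage kinase, rose. Samhd1, the hydrolase that lowers dNTP pools in resting cells, fell to 32.8 ± 1.86 FPKM in Grx2-/-, against 49.0 ± 1.42 FPKM in Grx2+/+ libraries (-0.57 ± 0.047, adjusted p = 1.79e-05). Rrm2b, the p53-inducible small subunit of ribonucleotide reductase, fell by 0.27 on the log2 scale and was named after its value was seen. The Rrm2 to Rrm2b ratio was 59.3, 59.0 and 57.2 in Grx2-/- and 17.2, 25.1 and 21.6 in Grx2+/+ libraries. Of 10 other chromatin genes 9 rose and 0 fell, led by the histone acetyltransferase Hat1 (1.01 ± 0.045), Dnmt1 (0.89 ± 0.058), the histone mRNA binder Slbp (0.77 ± 0.051) and the chaperone Asf1b (0.89 ± 0.083).

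Of 24 G1/S regulators 17 rose and 1 fell. Cyclin D1 (Ccnd1), which opens the G1/S transition with CDK4 and CDK6, rose to 192 ± 1.12 FPKM in Grx2-/-, against 58.9 ± 5.23 FPKM in Grx2+/+ libraries (1.69 ± 0.059, adjusted p = 1.50e-07). E2f1, an activator, rose by 0.94 ± 0.057, E2f6, a repressor, by 0.70 ± 0.045, and cyclin E1 (Ccne1) by 0.68 ± 0.047. E2f5, named after its value was seen, fell by 0.17 on the log2 scale (adjusted p = 0.0346), a call lost without Grx2-/- replicate 2 or 3 (adjusted p = 0.064 and 0.11), without Grx2+/+ replicate 2 or 3 (0.0952 and 0.0983), without both libraries that stand apart (0.0959) and with no filter (0.0646), and the range over all settings was 0.00453 to 0.11. The checkpoint list was the least changed: 2 of 7 tested genes rose, Chek1 (0.37 ± 0.094) and Rad9a (0.23 ± 0.063), and Rad17, the loader of the RAD9A clamp, fell by 0.24 on the log2 scale.

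**Figure D4:**
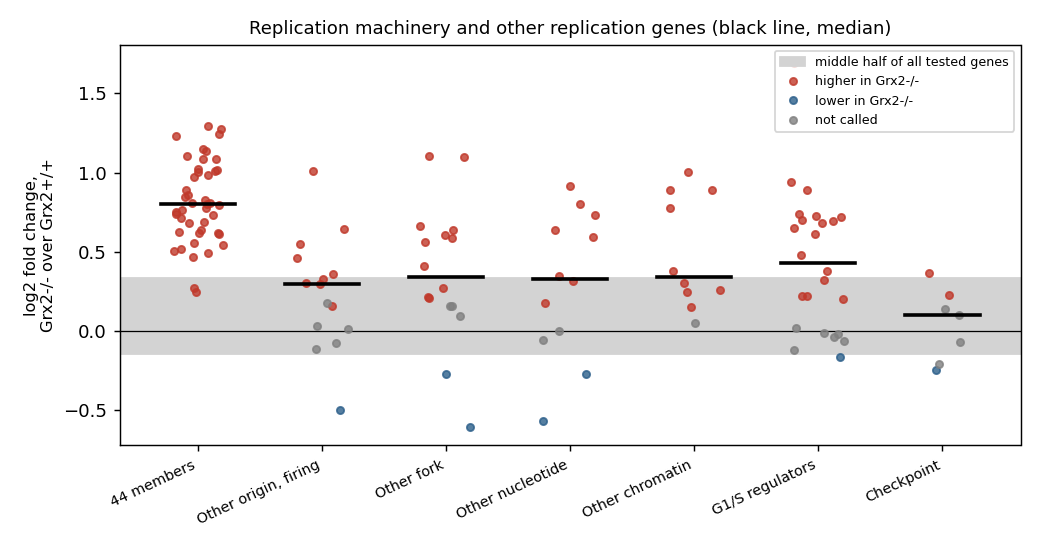
Log2 fold change (y axis, Grx2-/- over Grx2+/+) of the 44 replication genes and of the tested members of the 6 further lists, coloured by whether they were higher, lower or not called, with list medians as black lines and the interquartile range of all tested genes shaded. The 44 genes have a median of 0.80, against 0.43 for the G1/S regulators and 0.10 for the checkpoint list.

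Within each genotype, 1 library was the extreme one for most replication genes. Grx2-/- replicate 1 was the lowest of its group for 38 of 44 genes, with a median deviation of -0.088 from the group mean of log2(FPKM + 1). Grx2+/+ replicate 2 was the highest of its group for 35 of 44, with a median deviation of 0.084. Both shifts ran toward the other genotype. These were also the libraries that stood furthest from the others of their genotype. How often they were extreme over all tested genes was not counted, so the shifts may not be particular to replication genes. Without both libraries, 44 of 44 still rose and the median log2 fold change was 0.89.

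Markers of other marrow cells differed between genotypes, and some also differed in these libraries. The 10 macrophage markers summed to 2482, 3371 and 3033 FPKM in Grx2-/- and 1522, 1636 and 1534 FPKM in Grx2+/+ libraries. Lyz2 made up most of each sum. Of the 10, 9 rose and C1qa was not called, beside 42.7% of all tested genes rising and 24.6% falling. The median log2 fold change of the 10 macrophage markers was 0.80 as for the replication genes. The range was wider, from -0.27 for C1qa to 2.25 for Adgre1, against 0.24 to 1.29 for the replication genes. Grx2-/- replicate 1 was the lowest of its group for 9 of the 10. Grx2+/+ replicate 2 was the lowest of its group for 7 of the 10, whereas it was the highest for most replication genes, and its highest macrophage sum came with Lyz2 at 1283 FPKM. The leukocyte genes Ptprc, Itgal and Laptm5, the mainly myeloid genes Itgam and Spi1, and Cd34, found on progenitors, endothelium and stroma, all rose, with a sum of 246 to 298 FPKM in Grx2-/- and 89.7 to 105 FPKM in Grx2+/+ libraries. For these 6 genes the library order was that of most replication genes. Grx2-/- replicate 1 was the lowest of its group for 5 of the 6, and Grx2+/+ replicate 2 was the highest of its group for all 6. Neutrophil markers summed to 1.84 to 2.12 FPKM in Grx2-/- libraries and to 888, 2579 and 1414 FPKM in Grx2+/+ replicates 1 to 3, so that Grx2+/+ replicate 2 was again the high one. Of these, 8 of 8 tested fell, and Retnlg and Ly6g were listed at 0 in every Grx2-/- library. Endothelial markers summed to 3.15 to 3.92 FPKM in Grx2-/- and 23.7 to 29.3 FPKM in Grx2+/+ libraries, and 6 of 6 tested fell. Tie1 and Tek were under the filter. Tie1 was at 0 in every Grx2-/- library, but Tek went the other way. It had 0.555, 0.647 and 0.625 FPKM in Grx2-/- and 0.284, 0.252 and 0.260 FPKM in Grx2+/+ libraries. Erythroid markers stayed at a sum of at most 0.385 FPKM in Grx2-/- and 0.692 FPKM in Grx2+/+ libraries, and lymphoid markers at 0.599 and 1.83 FPKM. The part of macrophages, neutrophils and endothelial cells in the replication gene levels was not tested.

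**Figure D5:**
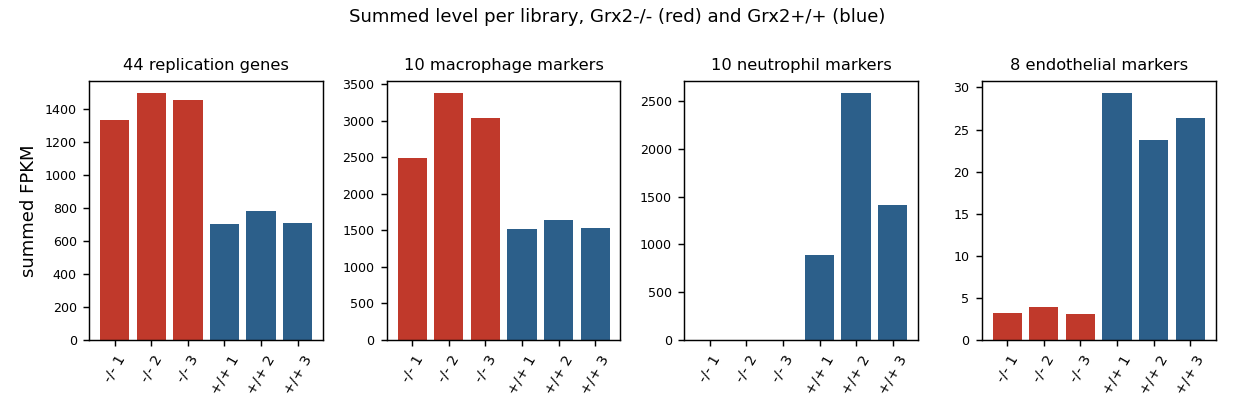
Summed FPKM per library (y axes from 0, each panel with its own scale) of the 44 replication genes and of 3 marker lists, with Grx2-/- (red) left of Grx2+/+ (blue). Replication genes sum to 1337 to 1497 FPKM in Grx2-/- and 706 to 784 FPKM in Grx2+/+ libraries. The macrophage sum is also higher in Grx2-/- libraries, and the neutrophil and endothelial sums are higher in Grx2+/+ libraries.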

How the data were processed

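Total RNA (TRIzol) was used with the VAHTS Universal V6 kit, per the labels' protocols. The authors deposited FPKM values, 1 column per library. HISAT2, HTSeq, R 3.2.0 and build GRCm39 are named in the submitters' processing notes; the annotation, any filter and whether strand was used in counting were not found there or in the labels, so reads of overlapping genes cannot be told apart. By RefSeq (GRCm38.p6), 12 of the 44 members overlap another listed gene: Orc1, Mcm7, Lig1, Gins2, Pold2, Rpa1, Tk1, Pole2, Cdc45, Rfc4, Chaf1a and Fen1.

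FPKM was used without rescaling. Whole reads were recovered for 22981 genes (99.99%), within 1e-06 reads, and no library was a copy of another. Log2(FPKM + 1) was fitted with limma 3.58.1 in R 4.3.3. FPKM + 1 understates changes of low genes. The members and lists were chosen with earlier results of these data known. Values in all libraries are given for the largest and smallest change of each role, and up to 4 genes of each further list are named by smallest p; a gene this rule names is not reported here. Chtf8 and Atrip were not used here, and Mcm9 was under the filter. Alternatives were another pseudocount, filter, scaling, variance model or replicate block, and libraries left out. Intervals between builds were not converted. Figures used matplotlib 3.10.9.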

Additional observations from a re-analysis of the deposited data

How the results depend on the processing

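Over 15 other settings, 42 to 44 of the 44 replication genes rose and 0 fell. With a mean of at least 5 FPKM only 42 were tested, and all rose. With quantile normalization, Pola1 and Dut (adjusted p = 0.0838 and 0.0502) were not called; over all settings Dut ran from 0.000432 to 0.0502. Pola1 was also lost with no filter (0.118) and with median-of-ratios scaling (0.0632). The members' median of 0.80 ran from 0.75 to 0.84 with 1 library left out. Quantile normalization moved it to 0.67 and moved the median of all tested genes by -0.11, so relative to all tested genes the members stood at 0.70 there, at 0.71 with median-of-ratios scaling and at 0.71 as reported. The 7 other replication genes that fell became 4 with a mean of at least 5 FPKM. Under that filter only 58 of the 84 genes were tested, without Orc4, Rrm2b and E2f5. The number that fell was 13 with median-of-ratios scaling and 14 with quantile normalization, and ran from 6 to 10 with 1 library left out. Same-numbered libraries of the genotypes correlated in their deviations by 0.107, 0.124 and 0.0199, and differently numbered ones by -0.129 to 0.0598. With 3 libraries per genotype these values cannot decide whether the numbers pair the libraries. With the replicate block 44 members rose, 0 fell and the median was 0.80. In that fit 57 other replication genes rose and 6 fell, E2f5 being lost (limma adjusted p = 0.0574). Not every library correlated best with its own number. No member was close to the counting limit, as the lowest had 208 reads.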
